A study of Homo sapiens with 4 samples.

Results

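The genes described here encode the subunits of the proteasome and the factors that assemble it. They were chosen by gene symbol, as every deposited peak whose gene name is PSM followed by a letter from A to G and a number, or POMP. RefSeq names 49 such genes, and 37 of them had at least 1 peak, among 12792 genes with a peak in all. Their peaks numbered 46 of 24626 in the shALKBH5 list and 38 of 22448 in the shNC list. The cells were RPMI-8226, an established human multiple myeloma line, transduced with lentivirus for a hairpin against ALKBH5, an RNA demethylase that removes N6-methyladenosine (m6A), or for the hairpin named shNC. In m6A-seq, poly(A) RNA bound by an antibody against m6A (the IP) is sequenced beside RNA that was not enriched (the input). Each condition had 1 IP and 1 input library, 4 libraries in all, and 1 peak list. No value therefore has a replicate, no p-value between conditions was computed, and the tables hold neither read counts nor expression levels, so depth is unknown and the knockdown was not checked. In such bulk lists, fewer cells with an RNA and less RNA per cell cannot be told apart.

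The proteasome degrades proteins that carry ubiquitin chains. Its barrel-shaped 20S core is built from outer alpha rings, which gate the entrance, and inner beta rings, which hold the proteolytic sites. The 19S cap recognises, unfolds and feeds in substrates, and other caps and dedicated chaperones regulate activity and assembly. Plasma cells and myeloma cells make large amounts of antibody or misfolded protein, and inhibitors of the catalytic subunit PSMB5 are used to treat myeloma.

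Gene starts held the largest share of proteasome peaks, and 8 of the genes had a peak only in the list of the ALKBH5 knockdown. These were the alpha ring genes PSMA1, PSMA3 and PSMA4, the beta ring genes PSMB4 and PSMB7, the ATPase gene PSMC4, the 19S assembly chaperone PSMD10 and the 20S assembly factor POMP. The other 29 genes with a peak stood in both lists (78.4%, where 83% of all genes with a peak did), and 0 stood in the shNC list alone. As shares of the 37 genes, 21.6% were in the shALKBH5 list alone (exact 95% binomial interval 9.83 to 38.2%) and 0% in the shNC list alone (up to 9.49%). Over all 12792 genes with a peak, the same shares were 11.5% for shALKBH5 alone and 5.5% for shNC alone. Both intervals include the share over all genes with a peak. All intervals cover counting error over genes or peaks only. Every fold and log10 p below is the authors' own, read from the authors' deposited table of that condition. A fold is IP over input at the peak, and it serves only to describe a peak or place it among the peaks of its own list.

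The sequences below, around transcript starts of these genes, show where most of the peaks they cover began. PSMB7 had no RefSeq promoter entry and is not printed. Besides PSMB7, 8 genes had a shALKBH5 peak without a shNC partner at a gene or transcript start. For these, 50 bases before and 30 bases from the RefSeq transcript start nearest to the peak are printed. They run 5′ to 3′ on the gene's strand, from RefSeq on GRCh38.p14. A partner is a peak of the other list with at least 1 base in common. Capitals mark bases inside the deposited shALKBH5 peak. PSMD2 and PSMC6, whose start peaks had the same borders in both lists, follow for comparison. The PSMD2 peak began upstream of its printed bases.
PSMB4 (chr1:151399523-151399602, plus strand): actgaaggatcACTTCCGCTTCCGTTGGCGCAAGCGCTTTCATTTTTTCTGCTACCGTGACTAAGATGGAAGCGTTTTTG
PSMA1 (chr11:14520357-14520436, minus strand): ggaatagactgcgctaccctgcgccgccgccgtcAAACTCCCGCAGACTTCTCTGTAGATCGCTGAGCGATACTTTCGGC
PSMA3 (chr14:58244793-58244872, plus strand): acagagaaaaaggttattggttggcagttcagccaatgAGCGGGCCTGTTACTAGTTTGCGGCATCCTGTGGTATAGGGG
PSMA4 (chr15:78540394-78540473, plus strand): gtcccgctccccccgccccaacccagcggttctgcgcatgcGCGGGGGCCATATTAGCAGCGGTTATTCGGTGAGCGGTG
PSMA5 (chr1:109426419-109426498, minus strand): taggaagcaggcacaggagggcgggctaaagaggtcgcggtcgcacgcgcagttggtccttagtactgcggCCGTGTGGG
PSMC4 (chr19:39971115-39971194, plus strand): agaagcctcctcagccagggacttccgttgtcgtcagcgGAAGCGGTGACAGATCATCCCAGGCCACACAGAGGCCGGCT
PSMD10 (chrX:108091513-108091592, minus strand): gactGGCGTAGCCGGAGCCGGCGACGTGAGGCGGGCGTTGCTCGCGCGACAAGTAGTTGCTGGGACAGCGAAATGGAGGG
POMP (chr13:28659080-28659159, plus strand): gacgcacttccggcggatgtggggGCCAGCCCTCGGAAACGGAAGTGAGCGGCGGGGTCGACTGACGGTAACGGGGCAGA
PSMD2 (chr3:184299191-184299270, plus strand): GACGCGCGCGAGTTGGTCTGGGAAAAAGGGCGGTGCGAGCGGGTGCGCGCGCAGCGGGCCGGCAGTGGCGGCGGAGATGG
PSMC6 (chr14:52707150-52707229, plus strand): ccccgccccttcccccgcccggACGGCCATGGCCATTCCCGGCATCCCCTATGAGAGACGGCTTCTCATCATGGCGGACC

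PSMB4, a structural subunit of the beta ring, had the strongest of these peaks. It covered 181 bases of chromosome 1, 151399534 to 151399714 on hg38, and began 39 bp upstream of the RefSeq start, as the capitals above show. The deposited fold was 3.15 and the log10 p -184, and 8.80% of shALKBH5 peaks had a stronger p. No other of the 4883 shALKBH5 peaks without a partner had a stronger p. The shNC list held no PSMB4 peak. The remaining shALKBH5 start peaks without a partner were far weaker by p. PSMA5, an alpha ring gene, had a second start peak at chromosome 1, 109426307 to 109426427, 21 bp into the gene, with fold 2.90 (log10 p -14.1). PSMD10, also known as gankyrin, had one at chromosome X, 108091408 to 108091588, with fold 2.69 (log10 p -7.65). PSMC4, an ATPase of the 19S base, had one of 91 bases in 2 blocks at chromosome 19, 39971154 to 39972151, with fold 3.40 (log10 p -7.44). POMP, which guides the closing of the beta rings, had one at chromosome 13, 28659104 to 28659887, with fold 4.69 (log10 p -7.27). These 4 peaks lay in the middle and weaker ranks of their list, where 51.8 to 67.4% of peaks had a stronger p.

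The alpha ring peaks of PSMA3, PSMA4 and PSMA1 and the PSMB7 peak were weaker still. PSMA4 had a peak at chromosome 15, 78540435 to 78540614, with fold 1.96 (log10 p -5.22). PSMA3 had one at chromosome 14, 58244831 to 58245181, with fold 2.44 (log10 p -4.94). PSMB7, which carries a catalytic site of the beta ring, had one of 90 bases at chromosome 9, 124415269 to 124415414, with fold 7.24 (log10 p -2.88), weaker than 96.4% of its list. The PSMA1 peak, at chromosome 11, 14520283 to 14520402, had fold 3.53 (log10 p -4.13). By the RefSeq gene span it lay inside the gene, but it began 16 bp upstream of a RefSeq transcript start within that span, the one printed above. Counting PSMA1, 8 of the 8 genes in the shALKBH5 list alone had their peak at a RefSeq gene or transcript start. By the gene span PSMA1 did not count, and 27.1% of all placed shALKBH5 peaks without a partner were at starts. Of the placed proteasome shALKBH5 peaks with a partner, 45.2% were at starts by the gene span. The share of all peaks at a gene or transcript start was not computed.

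**Figure D1:**
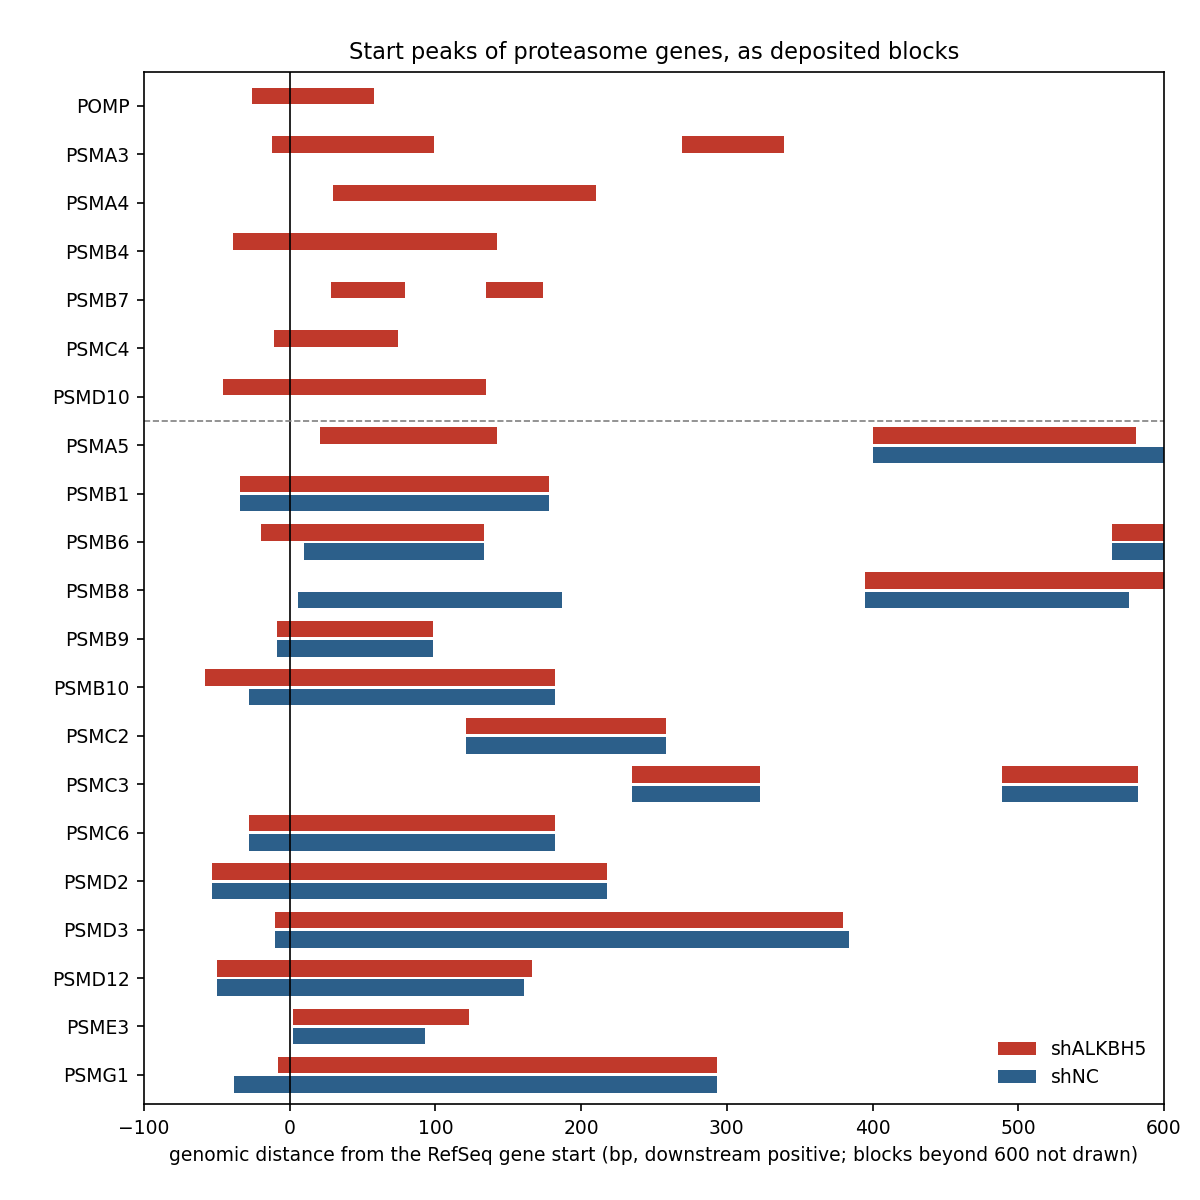
Deposited peak blocks of proteasome genes near the RefSeq gene start (0 on the x axis, genomic distance in bp), with shALKBH5 above shNC for each gene. The 7 genes above the dashed line have a start peak in the shALKBH5 list and no peak in the shNC list, and most bars begin close to 0.

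Proteasome peaks lay at gene starts in larger part than listed peaks did in general. A peak counted as a start peak when its 5′ edge lay before the RefSeq gene start or within the next 500 bp, and otherwise as an end peak when its 3′ edge was under 1000 bp from the gene end. Of the proteasome peaks placed on a RefSeq gene, 22 of 42 in the shALKBH5 list (52.4%, 36.4 to 68.0%) and 15 of 32 in the shNC list (46.9%, 29.1 to 65.3%) were at the start. The share over all placed peaks was 14.5% for shALKBH5 and 11.4% for shNC. End peaks made up 23.8% of proteasome peaks in the shALKBH5 list (10 peaks) and 28.1% in the shNC list (9 peaks), beside 22% and 23% of all placed peaks. Peaks elsewhere in the gene were 23.8% of proteasome peaks for shALKBH5 and 25.0% for shNC, against 63.5% and 65.6% of all placed peaks. The start peaks began from 58 bp upstream to 400 bp downstream of the RefSeq start in the shALKBH5 list and from 53 bp upstream to 400 bp downstream in the shNC list. In the shALKBH5 list 18 of the 22, and in the shNC list 11 of the 15, began within 60 bp of it, where 52.3% and 45.6% of all start peaks did.

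**Figure D2:**
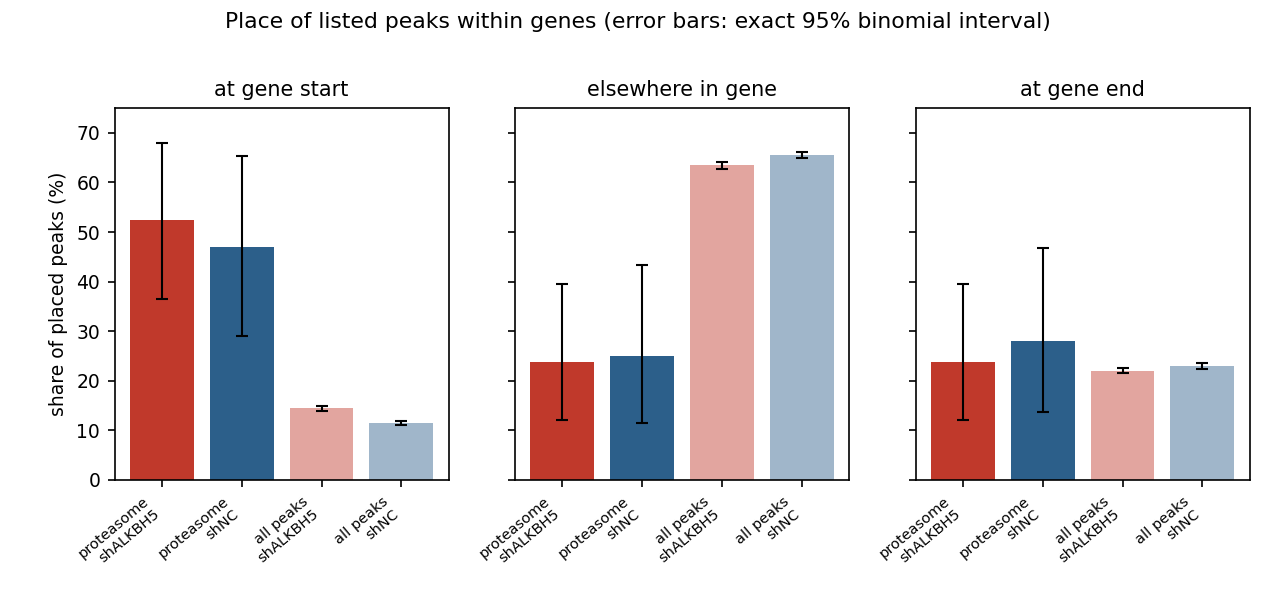
Share of placed peaks (y axis, %) at the gene start, elsewhere in the gene and at the gene end, for proteasome genes and for all peaks in the shALKBH5 and shNC lists, with exact 95% binomial intervals. Starts hold 52.4% and 46.9% of proteasome peaks, against 14.5% and 11.4% of all peaks.

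In the shALKBH5 list, 11 of 46 proteasome peaks (23.9%, 12.6 to 38.8%) had no partner, where 19.8% of all peaks had none. In the shNC list, 2 of 38 (5.26%, 0.644 to 17.7%) had no partner, where 12.6% of all peaks had none. Both intervals include the share over all peaks. Of the 11, 8 were start peaks by the gene span (72.7%, 39.0 to 94.0%). Over all placed shALKBH5 peaks without a partner, 27.1% were. Of the 31 placed proteasome shALKBH5 peaks with a partner, 14 were start peaks too (45.2%, 27.3 to 64.0%), against 11.5% of all such peaks. The interval for the 8 of 11 includes this 45.2%. Start peaks without a partner were 19% of the 42 placed proteasome peaks (8.60 to 34.1%), against 5.19% of all placed shALKBH5 peaks. In the shNC list 0 of 32 placed proteasome peaks were start peaks without a partner (up to 10.9%), against 1.55% of all placed shNC peaks. That 0 rests on a peak of another gene: the PSMB8 start peak of the shNC list at chromosome 6, 32844493 to 32844673, shared bases in the shALKBH5 list only with a PSMB8-AS1 peak on the opposite strand. With partners required on the same strand it had none, and the proteasome peaks without a partner then numbered 11 for shALKBH5 and 3 for shNC. With 1 list per condition, a difference between the lists is one between 2 pairs of libraries, and the part of library depth in it was not tested.

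The remaining 3 of the 11 lay away from gene starts by the gene span, the PSMA1 peak above, 1 at PSMC1 and 1 at PSMD3. PSMD3, a subunit of the 19S lid, had a peak of 389 bases near its gene end, at chromosome 17, 39997512 to 39997900, with fold 3.77 (log10 p -16.9) for shALKBH5. The PSMC1 peak, at chromosome 14, 90268041 to 90268190, had fold 11.3 (log10 p -5.06), and it shared 146 of its bases with a listed peak of NRDE2 on the opposite strand. Strand use in the peak calling was not stated, so the genes of such a pair cannot be told apart. Both shNC peaks without a partner carried the name PSMG4.

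Within the 20S core, start peaks predominated. The alpha ring had peaks in 5 of 8 genes, 2 of them in both lists and 3 in the shALKBH5 list alone, and 4 of its 6 shALKBH5 peaks and 1 of its 2 shNC peaks were at starts. PSMA5 also had a start peak that both lists held, with fold 5.73 (log10 p -8.21) for shALKBH5 and fold 24.1 (log10 p -12.5) for shNC. PSMA2 had the only end peak of the alpha ring, with fold 2.58 (log10 p -8.64) for shALKBH5 and fold 4.17 (log10 p -21.2) for shNC. In the beta ring, 4 of 7 genes had peaks, and all 4 shALKBH5 peaks and both shNC peaks were at starts. PSMB1, a structural subunit, had identical borders for each condition, with fold 2.77 (log10 p -65.1) for shALKBH5 and fold 1.97 (log10 p -31.4) for shNC. PSMB6, which carries a catalytic site, had fold 5.51 (log10 p -27.9) for shALKBH5 and fold 2.78 (log10 p -14.4) for shNC. PSMA6, PSMA7, PSMB2, PSMB3 and the drug target PSMB5 had no listed peak, nor had PSMA8, an alpha subunit of the testis. A missing peak says only that none was listed, and the largest FDR among listed peaks was 0.0479 in both lists.

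**Figure D3:**
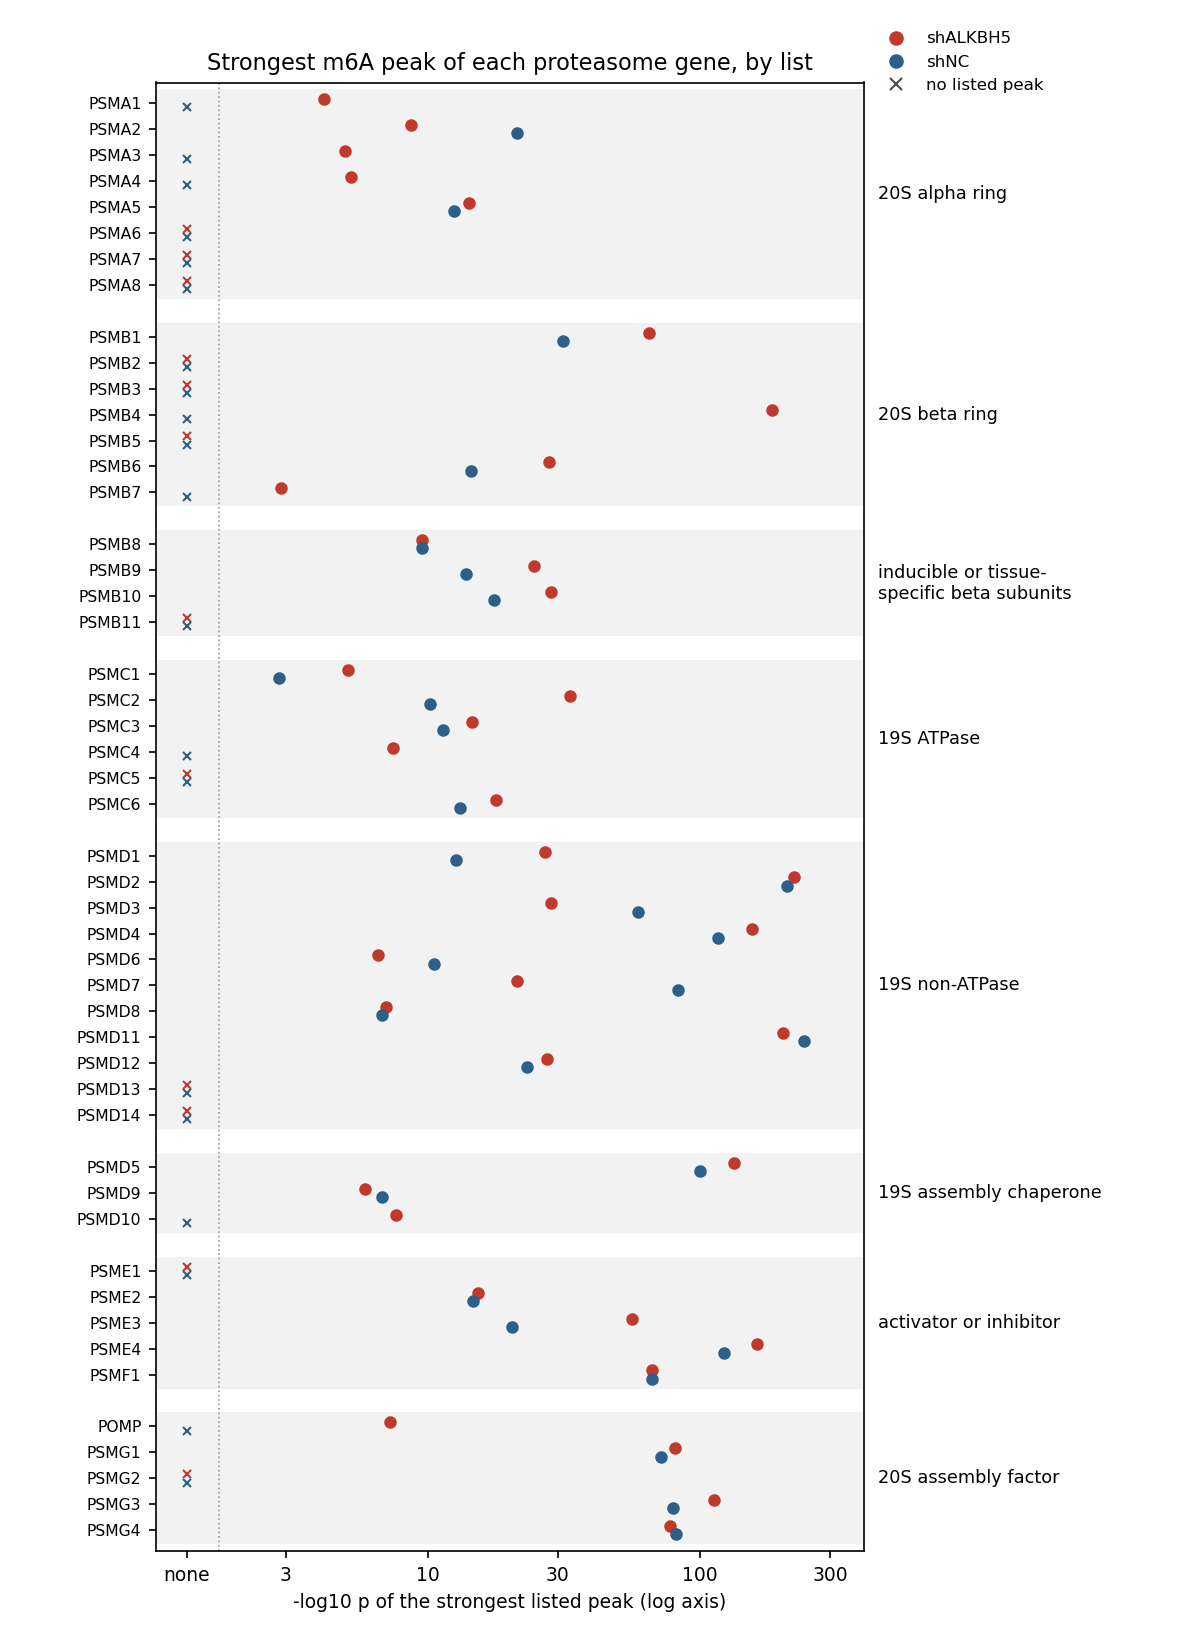
Strongest listed peak of each of the 49 proteasome genes by -log10 p (x axis, log scale), shALKBH5 above shNC for each gene, grouped by part of the complex. Crosses mark genes with no listed peak: 8 genes have a cross for shNC alone and 0 for shALKBH5 alone.

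The beta subunits of the immunoproteasome, which replace the catalytic subunits in immune cells and under interferon, had peaks in both lists for PSMB8, PSMB9 and PSMB10. PSMB10 had a start peak with fold 3.71 (log10 p -28.2) for shALKBH5 and fold 3.13 (log10 p -17.5) for shNC. PSMB9 had a start peak with identical borders for each condition, at fold 3.25 (log10 p -24.6) for shALKBH5 and fold 2.76 (log10 p -13.8) for shNC. A second PSMB9 peak, from 32844136 on chromosome 6, lay outside the RefSeq span of PSMB9, and it shared bases with peaks of PSMB8 and PSMB8-AS1 in both lists. It had fold 2.43 (log10 p -2.95) for shALKBH5 and fold 2.50 (log10 p -3.50) for shNC. PSMB8 had 1 shALKBH5 peak (fold 4.11, log10 p -9.48) and 2 shNC peaks (folds 4.84 and 2.90, log10 p -9.52 and -4.39). Each of these PSMB8 peaks also shared bases with a PSMB8-AS1 peak, so the signal of these overlapping genes cannot be assigned to 1 of them. PSMB11, the beta subunit of the thymus, had no listed peak.

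Of the 19S ATPases, which unfold substrates, PSMC1, PSMC2, PSMC3 and PSMC6 had peaks in both lists and PSMC5 had none. The PSMC2, PSMC3 and PSMC6 peaks were at starts. PSMC2 had fold 3.57 (log10 p -33.3) for shALKBH5 and fold 1.66 (log10 p -10.2) for shNC. PSMC6 had fold 9.23 (log10 p -17.7) for shALKBH5 and fold 5.95 (log10 p -13.1) for shNC. PSMC3 had fold 2.64 (log10 p -14.5) for shALKBH5 and fold 2.46 (log10 p -11.3) for shNC. The shared PSMC1 peak lay near the gene end and was among the weakest of all proteasome peaks, with fold 12.7 (log10 p -3.03) for shALKBH5 and fold 9.81 (log10 p -2.84) for shNC. It too shared bases with a NRDE2 peak, and PSMC1 has 13 pseudogenes in RefSeq, of which PSMC1P1 had a listed peak of its own in both lists. RefSeq names 53 pseudogenes after 22 of the 49 genes, and reads can be split between such copies.

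The 19S non-ATPase subunits, which form the lid and part of the base, had peaks at starts, at ends and elsewhere in the gene. Of 11 genes, 9 had peaks, each of them in both lists, and the deubiquitinating subunit PSMD14 and PSMD13 had none. Of their peaks, 3 of 13 for shALKBH5 and 3 of 12 for shNC were at starts, at PSMD2, PSMD3 and PSMD12, beside 14.5% and 11.4% of all placed peaks. This group also held the strongest proteasome peaks in both lists. PSMD2, the largest scaffold of the base beside PSMD1, had a start peak of 271 bases, at chromosome 3, 184299188 to 184299458, with fold 5.11 (log10 p -221) for shALKBH5 and fold 9.81 (log10 p -208) for shNC. PSMD11, a lid subunit, had its main peak of 331 bases inside the gene, at chromosome 17, 32481038 to 32481368, with fold 3.94 (log10 p -201) for shALKBH5 and fold 4.19 (log10 p -241) for shNC. Both peaks had the same borders in the shALKBH5 and shNC lists. Upstream of that peak, PSMD11 had a weak one with fold 2.26 (log10 p -2.52) for shALKBH5 and fold 4.76 (log10 p -4.28) for shNC.

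This group held 6 of the 10 end peaks for shALKBH5 and 5 of the 9 for shNC. PSMD4, a ubiquitin receptor, had a peak that ended exactly at its RefSeq end, from 151267269 to 151267479 on chromosome 1 for shALKBH5 and from 151267239 for shNC, with fold 2.51 (log10 p -155) for shALKBH5 and fold 2.28 (log10 p -116) for shNC. PSMD1 and PSMD8 also had peaks that stopped at the RefSeq end. The PSMD1 peak had fold 5.54 (log10 p -26.8) for shALKBH5 and fold 2.82 (log10 p -12.7) for shNC. The PSMD8 peak, of a lid subunit, had fold 1.68 (log10 p -7.01) for shALKBH5 and fold 2.38 (log10 p -6.76) for shNC. PSMD7, a partner of PSMD14 in the lid, had 2 end peaks in each list. The stronger PSMD7 peak, at chromosome 16, 74305603 to 74305752 for shALKBH5 and 74305573 to 74305782 for shNC, had fold 1.65 (log10 p -21.3) for shALKBH5 and fold 2.63 (log10 p -83.2) for shNC. The weaker one, at the gene end itself, had fold 2.28 (log10 p -10.4) for shALKBH5 and fold 1.72 (log10 p -4.11) for shNC, and it shared its 90 bases with a far stronger peak of AC009120.2, a locus on the opposite strand (log10 p -385 for shALKBH5 and -300 for shNC). The start peaks of this group beside that of PSMD2 belonged to lid subunits and were present in both lists. PSMD3 had one with fold 2.05 (log10 p -28.4) for shALKBH5 and fold 2.03 (log10 p -58.9) for shNC. PSMD12 had one with fold 5.04 (log10 p -19.9) for shALKBH5 and fold 3.46 (log10 p -9.32) for shNC. Its second peak, inside the gene, had fold 1.97 (log10 p -27.3) for shALKBH5 and fold 1.82 (log10 p -23.1) for shNC. PSMD6 had fold 3.74 (log10 p -6.52) for shALKBH5 and fold 7.77 (log10 p -10.5) for shNC, in a stretch that PSMD6-AS2 overlaps.

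The chaperones of the 19S base were PSMD5, PSMD9 and PSMD10. PSMD5, which holds back the ATPase ring during assembly, had a spliced peak at chromosome 9, from 120817766 to 120820860 with 420 bases for shALKBH5 and from 120817736 with 450 bases for shNC. It had fold 5.53 (log10 p -133) for shALKBH5 and fold 4.71 (log10 p -99.6) for shNC. PSMD9 had the lowest fold of any proteasome peak in each list, 1.42 for shALKBH5 and 1.45 for shNC, at log10 p values of -5.88 and -6.79, and it shared 82 of its 91 bases with a peak of the locus AC069503.2. PSMD10 was in the shALKBH5 list alone.

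Among the alternative caps and the inhibitor, 4 of 5 genes had peaks, all in both lists. PSME4, the large nuclear activator PA200, had an end peak from 53864905 on chromosome 2, to 53865414 for shALKBH5 and to 53865384 for shNC, with fold 5.68 (log10 p -162) for shALKBH5 and fold 5.42 (log10 p -122) for shNC. PSMF1, the proteasome inhibitor PI31, had a peak inside the gene, at chromosome 20, 1165396 to 1165845 for shALKBH5 and 1165366 to 1165875 for shNC, with a log10 p of -66.3 in both lists and folds of 5.55 for shALKBH5 and 6.70 for shNC. PSME3, the nuclear activator PA28 gamma, had a start peak with fold 9.74 (log10 p -56.0) for shALKBH5 and fold 6.0 (log10 p -13.7) for shNC. Its second peak had fold 1.88 (log10 p -43.6) for shALKBH5 and fold 1.56 (log10 p -20.3) for shNC. For PSME2, a subunit of the interferon-induced activator, the listed peak lay just upstream of the RefSeq span and shared 138 bases with a peak of RNF31 on the opposite strand in both lists. The PSME2 peak had fold 4.80 (log10 p -15.2) for shALKBH5 and fold 6.04 (log10 p -14.6) for shNC. Its partner subunit PSME1 had no listed peak.

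The 20S assembly factors other than POMP and PSMG2, which had no peak, stood in both lists. PSMG1 had a start peak from 39183222 on chromosome 21, to 39183522 for shALKBH5 and to 39183552 for shNC, with fold 5.08 (log10 p -80.8) for shALKBH5 and fold 9.81 (log10 p -71.7) for shNC. PSMG3 had an end peak from 1567478 on chromosome 7, to 1567746 for shALKBH5 and to 1567716 for shNC, with fold 2.85 (log10 p -112) for shALKBH5 and fold 2.37 (log10 p -79.5) for shNC. The peaks named PSMG4 lay outside its RefSeq span, on chromosome 6 inside the span of SLC22A23, a gene on the opposite strand. The most upstream of them, from 3270579 to 3289806 for shALKBH5 (log10 p -77.3) and from 3270549 to 3289836 for shNC (log10 p -81.7), shared 256 bases for shALKBH5 and 286 bases for shNC with a SLC22A23 peak of nearly the same fold (PSMG4 7.43 and SLC22A23 7.43 for shALKBH5, PSMG4 6.16 and SLC22A23 6.17 for shNC). The highest fold of any proteasome peak, 86.9 at a log10 p of -25.2 for shALKBH5, was the PSMG4 peak from 3302894 to 3303373, which had fold 8.70 (log10 p -8.23) for shNC. The 2 shNC peaks of PSMG4 without a partner had folds of 12.5 and 4.24 and log10 p values of -2.99 and -4.61. What is listed under PSMG4 thus cannot be assigned to PSMG4 from these tables.

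Compared with the lists as a whole, proteasome peaks had low folds and short blocks. Their median fold was 3.64 for shALKBH5 and 3.81 for shNC, against 6.64 and 6.54 over all peaks. A fold of 10 or more was reached by 3 of 46 peaks for shALKBH5 (6.52%) and 2 of 38 for shNC (5.26%), against 33.7% of all peaks in either list. In the shALKBH5 list these were both PSMC1 peaks and a PSMG4 peak, and in the shNC list they were the peaks of PSMA5 and PSMG4 named above. The median log10 p was -18.8 for shALKBH5 and -13.8 for shNC, against -15.3 and -15.8 over all peaks. Proteasome peaks held a median of 181 bases for shALKBH5 and 210 bases for shNC, against 269 and 270 bases over all peaks. Start peaks over all genes were shorter too, with a median of 210 bases in both lists and median folds of 5.16 for shALKBH5 and 5.13 for shNC. Proteasome start peaks had medians of 181 bases and fold 3.64 for shALKBH5, and 210 bases and fold 3.13 for shNC. Most of these genes had a single peak, 28 of 37 for shALKBH5 (75.7%) and 22 of 29 for shNC (75.9%), against 47.6% and 49.4% of all genes with a peak. A fold can repeat across peaks: the value 9.81 in the shNC list, seen at PSMD2, PSMG1 and PSMC1, was shared by 208 shNC peaks. Among the folds of 10 or more, the PSMC1 values 12.7 and 11.3 were shared by 353 and 108 shALKBH5 peaks. The PSMG4 value 12.5 and the PSMA5 value 24.1 were shared by 279 and 69 shNC peaks. The PSMG4 value 86.9 stood at 1 shALKBH5 peak.

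Of the peaks that PSM genes and POMP shared between the lists, 35 pairs lay in the same gene, and 11 pairs had the same borders in both lists. At start pairs, the shALKBH5 peak held more bases in 6 of 14 and the shNC peak in 3. Over all 35 pairs, the shALKBH5 peak was wider in 13 and the shNC peak in 11.

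RefSeq promoters, which span 250 bases before to 50 bases from a start, matched 43 of the 49 genes by symbol. The motif CCGGAA, the core bound by ETS transcription factors, was found on either strand in 20 of the 43 promoters (46.5%), against 17.6% of all 27305 promoters. TGACNNNGC, the core of the antioxidant response element that NFE2L1 binds in proteasome genes, was found on either strand in 13 of 43 (30.2%), against 13.6% of all promoters. The 2 motifs were counted separately and can overlap. The 27305 promoters were those of all genes in the RefSeq set, with or without a listed peak. They were not matched to the proteasome promoters in base composition. For m6A, only the first 50 transcribed bases were searched, while shALKBH5 start peaks reached 141 bp past the start at PSMB4 and 217 bp at PSMD2. On the transcribed strand, GGAC, the core of the commonest m6A motif, was found in the first 50 transcribed bases of 8 of 43 (18.6%), against 18.8% of all promoters. Among the 8 genes with a printed start peak only in the shALKBH5 list, GGAC was there in PSMB4 and PSMD10, CCGGAA in the promoters of POMP and PSMD10, and TGACNNNGC in that of PSMC4. A first transcribed base that is A can be dimethylated, and antibodies against m6A also bind that form. The first base was A at 5 of the 8 printed starts (62.5%), which are the starts nearest to the peaks. At the first RefSeq start of each gene, it was A for 20 of 43 proteasome genes (46.5%) and 44.3% of all genes. PSMA4 had A at its printed start but not at its first one, so these shares are not of the same starts. The part of the first base in these peaks was not tested.

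Of 38 further genes that assemble, supply or control the proteasome, 30 had a peak and 28 of the 30 had one in both lists, beside 83% of all genes with a peak. ECPAS, a proteasome-binding scaffold, was in the shNC list alone, with 1 peak of fold 1.78 (log10 p -6.46). Of their peaks, 9 of 61 for shALKBH5 and 9 of 63 for shNC had no partner, beside 19.8% and 12.6% of all peaks. Starts made up 27.1% of all placed peaks without a partner for shALKBH5 and 12.7% for shNC. Of the pathway peaks without a partner, here counted whether placed or not, 4 of the 9 for shALKBH5 and 0 of the 9 for shNC were at starts. Among these start peaks were those of UCHL5, a deubiquitinase of the cap, PITHD1, and AKIRIN2, which brings proteasomes into the nucleus. The transcription factors and their activators had peaks in 7 of 7 genes in both lists. NFE2L1, the factor that raises proteasome gene transcription when the proteasome is inhibited, had 7 peaks in each list, the strongest with fold 16.7 (log10 p -1160) for shALKBH5 and fold 17.6 (log10 p -1020) for shNC. DDI2, the protease that activates NFE2L1, had fold 18.8 (log10 p -732) for shALKBH5 and fold 19 (log10 p -797) for shNC. RAD23B, a shuttle for ubiquitinated substrates, had fold 6.56 (log10 p -416) for shALKBH5 and fold 5.36 (log10 p -376) for shNC. These were the strongest peaks of the 38 genes in either list, and they lay inside the genes, away from starts and ends.

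For the label of the cells, peaks were found in 6 of 10 plasma cell genes, SDC1, CD38, IRF4, PRDM1, XBP1 and MZB1, in both lists. The other plasma cell genes, TNFRSF17, JCHAIN, SLAMF7 and CD27, had no peak in either list. T and NK cell genes had 1 of 6 (CD8A, shALKBH5 alone), myeloid genes 2 of 5 (ITGAM and CD68, both lists) and stromal genes 1 of 5 (PDGFRB, shNC alone). A listed peak needs both expression and enrichment, so a missing one does not show that a gene is silent.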

How the data were processed

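Per the labels' protocols, poly(A) RNA of RPMI-8226 cells was made into 1 input and 1 anti-m6A IP library for each of shALKBH5 and shNC. The tools named, without role or order, in the submitters' processing notes are HOMER 4.9.1, fastp 0.19.11 and BWA 0.7.12, with build hg38. Which caller made the peaks, how IP was scaled to input and whether strand was used were not stated. Per the file headers, the authors deposited for each peak a fold, the ratio of IP over input. They also deposited a p-value and its logarithm, which match within rounding. The deposited log10 p and log10 FDR are treated as a score, as they go below -100. A spreadsheet error stood in 1 shALKBH5 and 2 shNC cells of log10 p, none of them in a proteasome gene, and these ranked as strongest. Further such cells stood in the log10 FDR column, which was read only for its largest value.

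Here, starts were turned to 1-based positions. Partners were found over peak blocks with bedtools 2.31.1, with at least 1 shared base and strand ignored. Gene spans came from RefSeq GRCh38.p14, matched by symbol or a unique older symbol with the span overlapping the peak. Software was SciPy 1.17.1, numpy 2.4.6, pandas 2.3.3 and matplotlib 3.10.9 under Python 3.11.15. Partner and start calls were checked on simulated peaks. Depth is unknown, and intervals are exact (Clopper-Pearson) 95% intervals over peaks or genes, which are not independent replicates. The genes, gene lists and alternatives were chosen with earlier results of these data known. All 49 genes are named. Values are given in full for genes in 1 list alone, with a start peak lacking a partner, with 3 or more peaks in a list or among the 10 strongest by p in each list. Values of the other genes were added after they were seen. Values of 1 gene of the pathway lists are not reported here.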

Additional observations from a re-analysis of the deposited data

How the results depend on the processing

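No paired analysis was possible because each condition has 1 list and no replicate numbers. Of 53 values recomputed under other choices, 45 lay within 1.5 times the reported count and 8 did not. With a stricter fold, 2.22 for shALKBH5 and 2.24 for shNC (2 times the minimum of each list), proteasome genes in the shNC list alone numbered 1 (PSMD8) and unpartnered shNC proteasome peaks numbered 4, and of the pathway genes 6 stood in the shALKBH5 list alone and 0 in the shNC list alone. With the lists cut to equal length by p, unpartnered shNC proteasome peaks numbered 4, and of the pathway genes 0 stood in the shALKBH5 list alone and 2 in the shNC list alone. With a reciprocal overlap of 50%, 1 proteasome start peak of the shNC list, at PSMB8, had no partner. These settings keep fewer peaks or demand more overlap. The proteasome genes in the shALKBH5 list alone numbered 8 as reported and from 7 to 10 otherwise. With equal lists PSMB7 was no longer among them, and with the stricter fold PSMA4 was not, while PSMB1, PSMC2 and PSMD3 were. The start peaks without a partner in the shALKBH5 list numbered 8 as reported and from 7 to 9 otherwise. The further choices, any RefSeq transcript start and the removal of peaks shared with another gene, were added after the data were seen. Depth is unknown, so a peak missing from a list may only have missed its threshold.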

Other observations

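Some genes named after proteasome genes fall outside the rule because they are antisense RNAs, pseudogenes or other proteins, and PSMB8-AS1 and PSMA3-AS1 had stronger peaks by p than PSMB8 and PSMA3. PSMB8-AS1, an antisense RNA beside the immunoproteasome gene PSMB8, had 4 peaks in each list. Its strongest had fold 16.1 (log10 p -305) for shALKBH5 and fold 11.7 (log10 p -308) for shNC. PSMA3-AS1 had 3 peaks for shALKBH5 and 2 for shNC, the strongest with fold 8.70 (log10 p -57.8) for shALKBH5 and fold 8.23 (log10 p -49.6) for shNC, while PSMA3 itself had only its shALKBH5 start peak. PSMG3-AS1 had 1 peak, with fold 27.1 (log10 p -7.21) for shALKBH5 and fold 24.1 (log10 p -6.34) for shNC. PSMC3IP, a meiotic recombination factor that binds an ATPase subunit, had a peak in each list, and these met in a single base. The one for shALKBH5, at chromosome 17, 42577532 to 42577771, had fold 10.9 (log10 p -5.59), and the one for shNC, 42577284 to 42577532, had fold 2.05 (log10 p -3.32). All values here are from the authors' deposited tables.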
